A study of Mus musculus with 4 samples.

Results

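Genes of the extracellular matrix were followed in hair follicle stem cells, the sorted epithelial cells of the follicle's bulge that rebuild the hair, with regulatory T cells depleted or present. Members were every row of the count table whose symbol has the form of a collagen chain or a laminin chain, 55 genes, plus 17 genes named one by one, from the basement membrane protein Npnt to the matricellular protein Sparc. Together these were 72 of 24084 genes, and they were sorted by known role into 30 of the basement membrane, 28 of fibrillar and interstitial matrix and 14 other collagens. The 2 Foxp3-DTR libraries, replicates C and D, came from C57BL/6 mice whose Foxp3-expressing regulatory T cells carry the receptor for diphtheria toxin, so that the toxin removes those cells. The 2 WT libraries, replicates A and C, came from C57BL/6 mice without that receptor, which keep their regulatory T cells. All mice were 7 to 10 weeks old, had received 15 ng/g of the toxin by intraperitoneal injection, and were sampled on day 4 after depilation of the back, which starts a new hair growth phase. The labels do not give the number of mice behind a library or say that libraries came from separate mice, so a p-value here weighs only the variation among 4 libraries, part or all of which may be technical.

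The basement membrane is a thin sheet under every epithelium. Its core is built from a laminin network and a collagen IV network, tied together by nidogens and by the heparan sulphate proteoglycans perlecan and agrin, and basal keratinocytes hold on to it through hemidesmosomes that contain collagen XVII. The fibrillar matrix beyond it consists of collagen fibrils, the fibril-associated collagens and small proteoglycans on their surface, and glycoproteins such as fibronectin, tenascin C and periostin. In mouse skin, bulge cells lay down a basement membrane of their own kind, rich in nephronectin (Npnt), to which the arrector pili muscle attaches, and collagen XVII is known for its part in keeping these stem cells in the niche.

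Gene counts summed to between 13911765 and 15923154 per library, and levels are given as CPM, the usual depth-scaled unit for gene counts, on library sizes adjusted by the TMM method. Foxp3 had 0 counts in all 4 libraries. The listed markers Krt15, Krt5, Krt14, Cd34 and Sox9 were high in all 4 libraries, though Krt5 and Krt14 mark basal keratinocytes in general. The 10 listed stem cell markers summed to 27335 and 31663 CPM in Foxp3-DTR and to 33116 and 34003 CPM in WT. Krt5 alone stood at 11783 and 12822 CPM in Foxp3-DTR and at 15425 and 14467 CPM in WT. In edgeR 0 of the 10 passed. At an unadjusted p under 0.05 Cd34 and Itga6 were higher. Lhx2 was lower, at 425 and 439 CPM in Foxp3-DTR and at 789 and 804 CPM in WT. Sex-linked genes split the libraries by group: 4 Y-linked genes summed to 319 and 260 CPM in Foxp3-DTR C and D and had 0 counts in both WT libraries, while Xist stood at 1.86 and 0 CPM in Foxp3-DTR and at 861 and 2482 CPM in WT. Group, sex and whatever the title codes DEP3 (both Foxp3-DTR libraries) and DEP2 (both WT libraries) mark cannot be told apart. The replicates differed in markers of differentiated epidermis, whose 9 listed genes summed to 1727 and 8917 CPM in Foxp3-DTR C and D and to 11203 and 2209 CPM in WT replicates A and C. Of these 9, Calml3 fell between the groups, to 355 and 507 CPM in Foxp3-DTR against 1414 and 1149 CPM in WT (edgeR adjusted p = 0.0486). Its adjusted p in edgeR was 0.265 when Foxp3-DTR C was left out and 0.0523 when WT A was.

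Matrix genes are also made by fibroblasts, muscle, endothelium and nerve sheath, so markers of those cells were read in the same libraries. Of 18 fibroblast and dermal papilla markers, 7 were at 0 counts in all 4 libraries, namely Pdgfrb, Lum, Dpt, Mfap5, Twist2, Corin and Alpl. The summed level of this list was 306 and 339 CPM in Foxp3-DTR and 439 and 368 CPM in WT, and most of it was Fbln1, at 253 and 278 CPM in Foxp3-DTR and at 388 and 311 CPM in WT. In that list 1 gene rose, Mgp, an inhibitor of tissue calcification, at 32.9 and 33.4 CPM in Foxp3-DTR and 10.1 and 11.1 CPM in WT (edgeR adjusted p = 0.0441, and 0.0620 without WT A, 0.141 without Foxp3-DTR C and 0.0643 without Foxp3-DTR D). Of the 7 fibroblast markers tested, 4 had negative fold changes, with a median log2 fold change of -0.40. Serpinf1 stood at 3.65 and 4.53 CPM in Foxp3-DTR and at 15.0 and 10.8 CPM in WT, and Crabp1 at 8.55 and 12.5 CPM in Foxp3-DTR and at 16.3 and 26.8 CPM in WT, both lower at an unadjusted p under 0.05 and neither past the adjusted threshold. The part of cells other than stem cells in the matrix values was not tested. The 8 endothelial markers summed to 3.45 and 2.34 CPM in Foxp3-DTR and to 4.01 and 4.74 CPM in WT, with 5 of them at 0 in every library, Cdh5 and Kdr included. The 7 Schwann cell markers summed to 40.4 and 39.8 CPM in Foxp3-DTR and to 18.9 and 20.6 CPM in WT, mostly from Mbp. Of the 9 muscle and pericyte markers, Des, Rgs5 and Actg2 had 0 counts throughout. The 9 summed to 631 and 476 CPM in Foxp3-DTR and to 371 and 435 CPM in WT, nearly all from Cspg4, at 628 and 470 CPM in Foxp3-DTR and at 364 and 431 CPM in WT. The contractile markers Acta2 and Cnn1 were lower at an unadjusted p under 0.05, without passing. Acta2 stood at 0.199 and 0.213 CPM in Foxp3-DTR and at 3.31 and 0.677 CPM in WT. Cnn1 stood at 0.265 and 0.0709 CPM in Foxp3-DTR and at 1.41 and 1.17 CPM in WT. Both rested on few counts, 3 and 3 against 47 and 11 for Acta2 and 4 and 1 against 20 and 19 for Cnn1. Tagln had 4 and 5 counts in Foxp3-DTR and 4 and 4 in WT. Myh11 had 0 and 7 counts in Foxp3-DTR and 0 and 0 in WT. Neither of these was tested. Of the 4 muscle and pericyte markers tested, 2 had positive and 2 had negative fold changes. The 12 T cell and macrophage markers summed to 5.44 and 10.3 CPM in Foxp3-DTR and to 19.4 and 7.87 CPM in WT. The 9 sebaceous gland markers summed to 456 and 568 CPM in Foxp3-DTR and to 2176 and 441 CPM in WT replicates A and C. In bulk RNA, fewer cells of a type and less RNA per cell cannot be told apart.

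The regions just before the starts of 5 members are shown because the results turn on these genes: Col5a1, Bgn, Tnc and Npnt, which passed the test as lower in Foxp3-DTR, and Postn, the most abundant member, which stood higher there without passing. Col14a1, which also passed, is named only. Each is the 250 bases before the RefSeq start nearest the gene's annotated start, from RefSeq on GRCm38.p6, written 5′ to 3′ along the gene. Capitals mark matches, on either strand, to a motif. The GC box was searched as GGGCGG and the TATA box as TATAAA. The CCAAT box was searched by the letters of its name. The AP-1 motif was searched as TGANTCA, with any base at N.
Col5a1 at chr2:27886175-27886424, plus strand: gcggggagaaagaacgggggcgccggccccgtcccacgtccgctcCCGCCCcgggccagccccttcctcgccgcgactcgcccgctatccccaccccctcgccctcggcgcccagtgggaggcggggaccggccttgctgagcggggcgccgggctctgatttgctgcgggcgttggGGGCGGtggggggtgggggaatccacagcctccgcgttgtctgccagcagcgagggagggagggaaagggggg
Bgn at chrX:73483351-73483600, plus strand: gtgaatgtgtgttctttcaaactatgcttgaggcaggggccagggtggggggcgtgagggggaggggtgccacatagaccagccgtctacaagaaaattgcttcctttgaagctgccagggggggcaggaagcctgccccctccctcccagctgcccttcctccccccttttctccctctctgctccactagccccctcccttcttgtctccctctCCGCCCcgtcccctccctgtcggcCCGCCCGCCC
Tnc at chr4:64047016-64047265, minus strand: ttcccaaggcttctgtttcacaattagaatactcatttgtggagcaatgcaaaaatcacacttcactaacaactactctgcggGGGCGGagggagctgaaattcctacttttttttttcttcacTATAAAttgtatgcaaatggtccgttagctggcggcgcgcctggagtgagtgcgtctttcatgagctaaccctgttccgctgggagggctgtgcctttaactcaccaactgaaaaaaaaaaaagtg
Npnt at chr3:132950292-132950541, minus strand: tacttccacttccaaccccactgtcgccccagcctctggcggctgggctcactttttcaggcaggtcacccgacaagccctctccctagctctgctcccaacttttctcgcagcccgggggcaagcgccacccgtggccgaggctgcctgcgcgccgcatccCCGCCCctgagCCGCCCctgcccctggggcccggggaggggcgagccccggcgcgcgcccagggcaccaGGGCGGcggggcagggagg
Postn at chr3:54360857-54361106, plus strand: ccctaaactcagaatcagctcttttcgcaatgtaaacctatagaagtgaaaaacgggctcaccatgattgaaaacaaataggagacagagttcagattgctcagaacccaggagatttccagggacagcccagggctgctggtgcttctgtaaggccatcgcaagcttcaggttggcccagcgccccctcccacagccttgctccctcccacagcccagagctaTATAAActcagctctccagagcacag
The 4 shown that were lower hold a GC box in this window: Col5a1 has 2, Npnt 3, Tnc 1, and Bgn 3, of which 2 overlap each other just before the start. Tnc also has a TATA box, from 126 to 121 bases before the start, and Postn has a TATA box from 26 to 21 bases before the start and no GC box. No match to the CCAAT box or the AP-1 motif was found in these 5 windows. A GC box was present in 33.1% of 27025 promoters and in 57.7% of the 52 members in the table, and a TATA box in 13.0% of all promoters and 13.5% of these members. A CCAAT box was present in 34.5% of all promoters and 30.8% of these members, and an AP-1 motif in 6.85% and 1.92%. A match describes these letters and is not evidence of a bound factor.

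Levels of different genes were compared as CPM per kilobase of merged exons in the GENCODE M21 annotation, which may differ from the authors' annotation. Of the 72 members, 49 passed the filter on low counts and were tested. The 23 that did not pass had at most 16 counts in any library, reached by the dermal proteoglycan Dcn, and 6 had 0 counts in every library: Col9a1, Col6a4, Col6a5, Col13a1, Col26a1 and Col28a1. Col3a1, the fibrillar collagen that is among the most abundant in dermis, had 0 and 1 counts in Foxp3-DTR and 0 counts in both WT libraries. Nid1, whose product links the laminin and collagen IV networks, was tested but reached at most 1.69 CPM in a library.

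By the mean over the 4 libraries, the most abundant member per length was Postn, which encodes periostin, a matricellular protein that binds integrins and collagen. It stood at 2445 and 2320 CPM per kilobase in Foxp3-DTR and at 535 and 1100 CPM per kilobase in WT. Collagen XVII (Col17a1), the transmembrane collagen of the hemidesmosome, came next, at 1195 and 1039 CPM per kilobase in Foxp3-DTR and at 896 and 1307 CPM per kilobase in WT. Postn lay above Col17a1 in both Foxp3-DTR libraries and below it in both WT libraries. Next in that mean were Sparc, a collagen-binding matricellular protein, Col6a1, a chain of microfibrillar collagen VI, and agrin (Agrn). Within this trio the ranges over the 4 libraries overlapped. In WT alone Npnt, Bgn and Lamb3 had means of 161, 139 and 128 CPM per kilobase. These lay above Agrn and Col6a1, at 124 and 105 CPM per kilobase in WT.

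**Figure D1:**
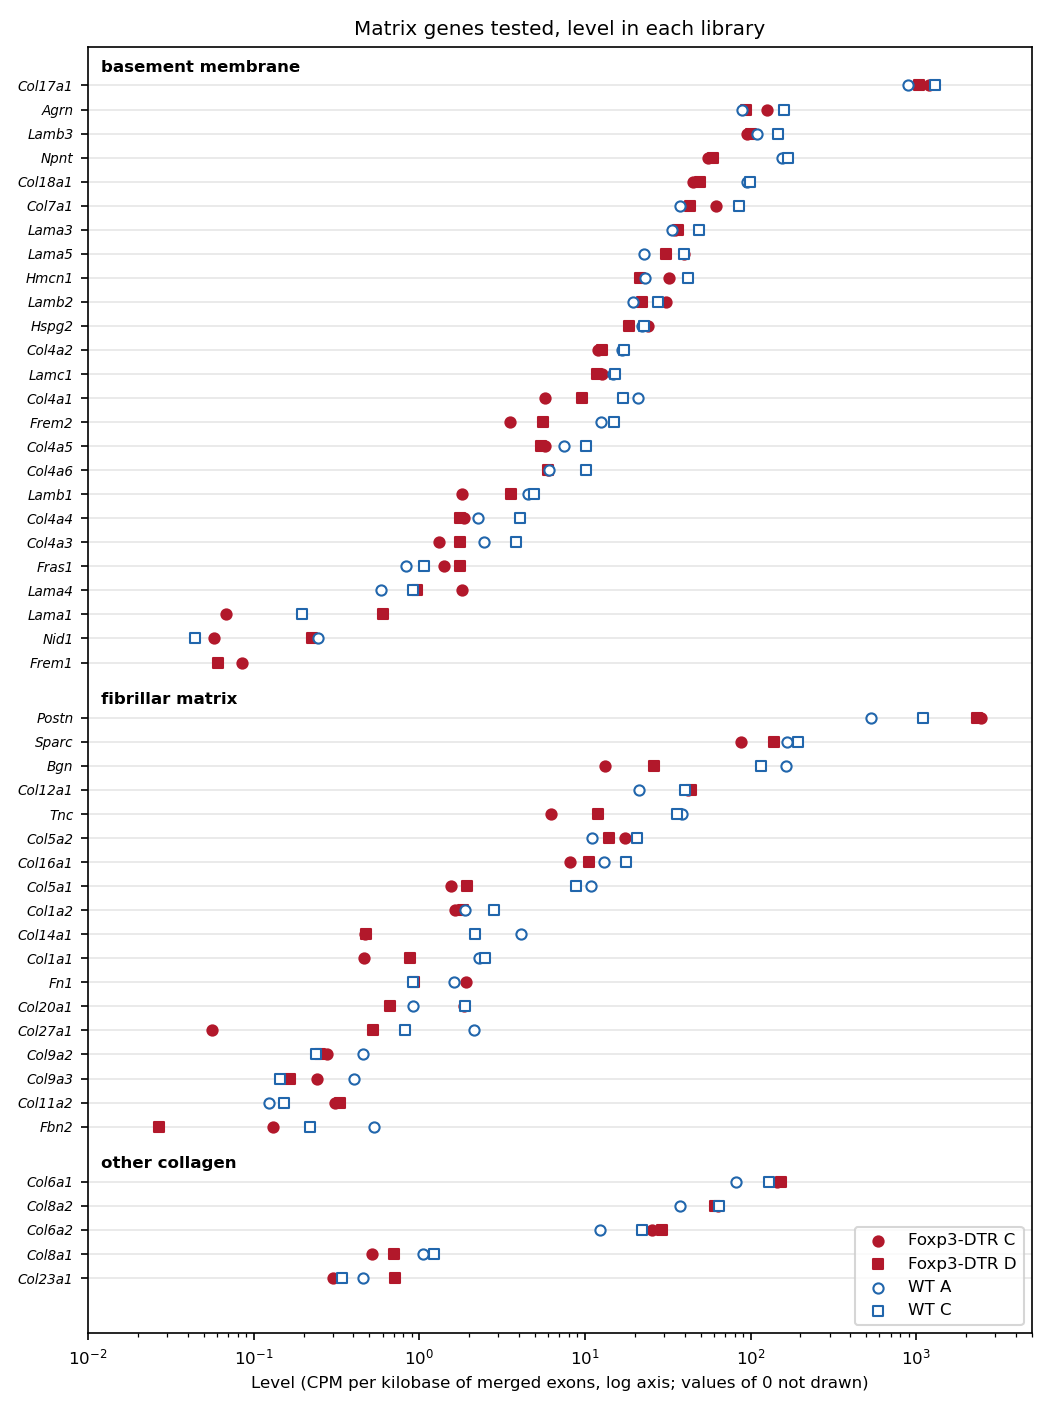
Level of the tested matrix genes reported here in each library, in CPM per kilobase of merged exons on a log axis, with Foxp3-DTR libraries as filled red symbols and WT libraries as open blue symbols, and values of 0 not drawn. Genes are ordered by mean level within the basement membrane, fibrillar and other collagen groups; Col17a1 and Postn lead the first and the second, and Bgn, Tnc, Col5a1, Col14a1 and Npnt show clear gaps between red and blue.

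Among the 49 tested members 5 fell (10.2%) in Foxp3-DTR and 0 rose when p-values from the quasi-likelihood F-test of edgeR were adjusted by Benjamini and Hochberg's method over 12920 genes. Over all tested genes 0.426% fell and 0.820% rose. The 5 were the fibrillar collagen chain Col5a1, the proteoglycan Bgn, the glycoprotein Tnc, the fibril-associated collagen Col14a1 and, in the basement membrane, Npnt. At an unadjusted p under 0.05 there were 16 lower and 3 higher members, against 7.89% and 6.76% of all genes, and DESeq2 called 9 members lower and 1 higher, against 3.77% and 3.59% of the 13619 genes it adjusted. Fold changes were negative for 33 of the 49 members, with a median log2 fold change of -0.30 (also with Frem1, at 0 counts in WT, set to its bound), against -0.01 over all genes. The groups did not overlap, with Foxp3-DTR lower, for 23 members (46.9%), against 23.7% of all tested genes, and with Foxp3-DTR higher for 8 members (16.3%), against 22.0%.

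**Figure D2:**
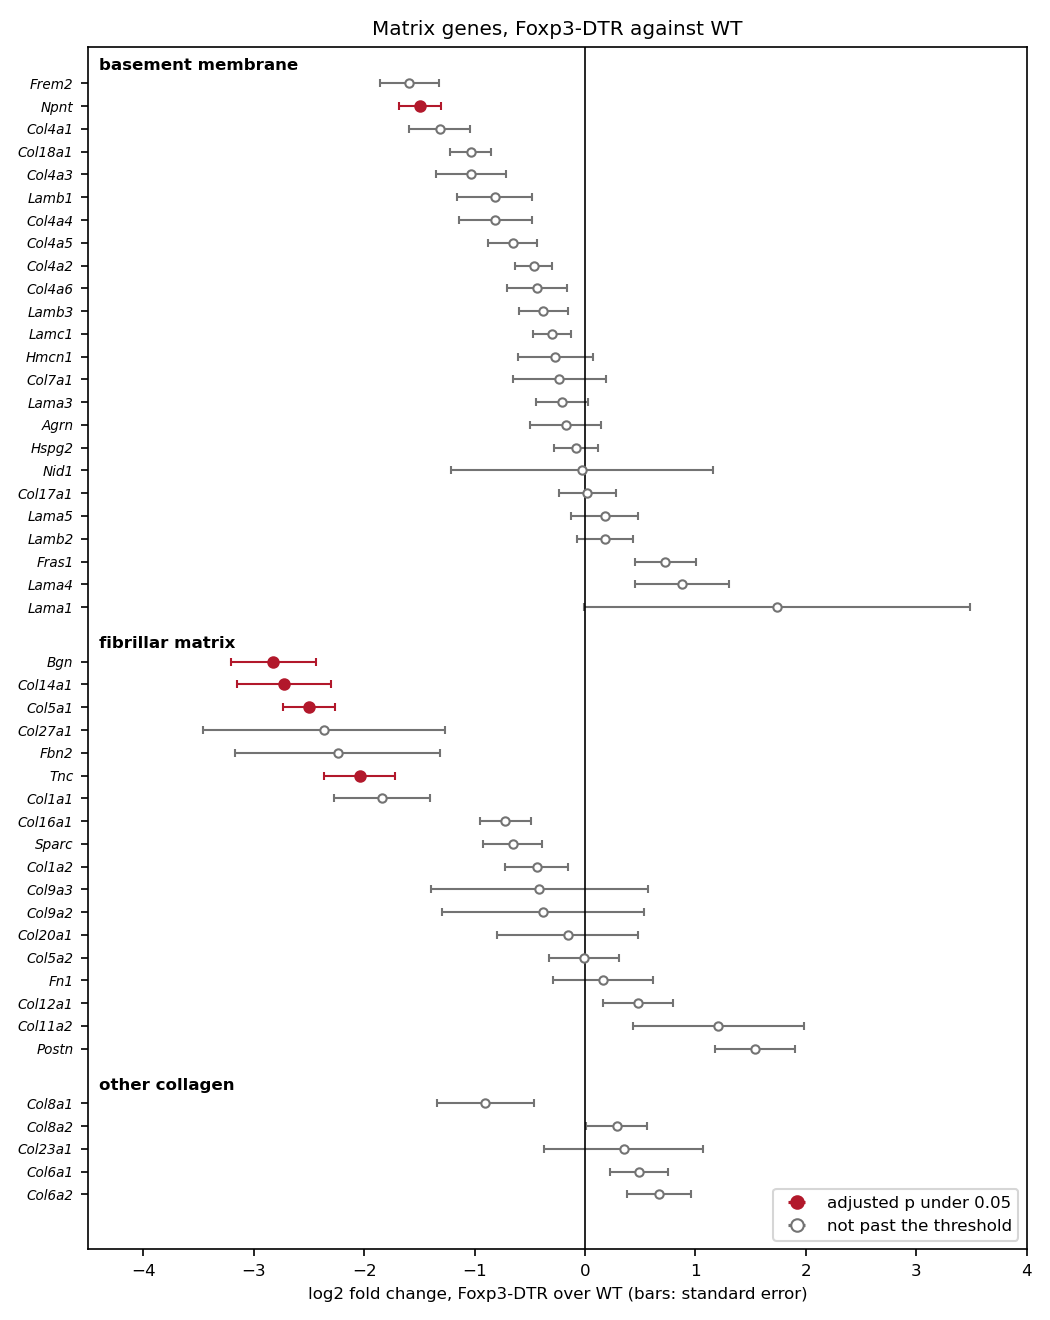
Log2 fold change of Foxp3-DTR over WT for the tested matrix genes reported here, with standard errors as bars, in red where the edgeR adjusted p was under 0.05. Frem1, with 0 counts in WT, is left out because its fitted value depends on the prior count; 4 of the red points lie in the fibrillar group at -2.82 to -2.04 and 1, Npnt at -1.50, in the basement membrane group.

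Of 18 tested fibrillar matrix genes, 4 fell and 0 rose in edgeR, with 8 lower and 1 higher at an unadjusted p under 0.05, and 5 lower and 1 higher in DESeq2. In this group 14 had negative fold changes, and the median log2 fold change was -0.55. Of 26 tested basement membrane genes, 1 fell and 0 rose in edgeR, with 8 lower and 2 higher at an unadjusted p under 0.05, and 4 lower and 0 higher in DESeq2. In this group 18 had negative fold changes, and the median was -0.25. Of 5 tested other collagens 0 passed in either direction, 0 had an unadjusted p under 0.05, DESeq2 called 0, 4 had positive fold changes, and the median was 0.35. At the shares given above for all genes, a count of 0 among 5 does not set these collagens apart. The difference between these groups of genes was not tested. Summed levels showed another picture, since Postn made up 93.8% and 92.1% of the fibrillar group's CPM in Foxp3-DTR C and D and 63.6% and 77.2% in WT A and C. The fibrillar group summed to 22682 and 21914 CPM in Foxp3-DTR and to 7315 and 12392 CPM in WT. Without Postn it summed to 1403 and 1726 CPM in Foxp3-DTR and to 2661 and 2824 CPM in WT, so the order of Foxp3-DTR and WT turned round. That remaining sum held Bgn, at 80.9 and 159 CPM in Foxp3-DTR and 993 and 701 CPM in WT. It also held Tnc, at 48.6 and 93.0 CPM in Foxp3-DTR and 302 and 280 CPM in WT. Both passed as lower, so the sum does not show that the other fibrillar genes were lower as a whole. The basement membrane group summed to 13098 and 11347 CPM in Foxp3-DTR and to 11412 and 16324 CPM in WT, and the groups overlapped. Without Col17a1 it summed to 5916 and 5101 CPM in Foxp3-DTR and to 6023 and 8468 CPM in WT, where both Foxp3-DTR libraries were lower, Foxp3-DTR C by little against WT A.

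Col5a1 encodes a chain of collagen V, which sits inside collagen fibrils and controls their diameter. Its gene lies on chromosome 2 (mm10, 27886425 to 28039514). It stood at 13.2 and 16.4 CPM in Foxp3-DTR C and D, against 92.4 and 74.9 CPM in WT A and C. Both Foxp3-DTR libraries were far below both WT libraries, and the means were 14.8 ± 2.24 and 83.6 ± 12.3 CPM (SD, n = 2 per group). On the log2 scale Col5a1 fell by 2.50 ± 0.23 (SE; edgeR adjusted p = 0.0103), and it was below the threshold under all 8 alternative settings. Its partner chain Col5a2 stood at 168 and 134 CPM in Foxp3-DTR and at 106 and 198 CPM in WT, a log2 fold change of -0.01 ± 0.32 whose sign turned with the scaling.

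Bgn encodes biglycan, a small leucine-rich proteoglycan that binds collagen fibrils and growth factors. It is X-linked (chromosome X, 73483602 to 73495933), and the groups differed in Xist as given above, whose part in this value was not tested. Bgn stood at 80.9 and 159 CPM in Foxp3-DTR C and D, against 993 and 701 CPM in WT A and C. It fell by 2.82 ± 0.38 on the log2 scale (edgeR adjusted p = 0.0412). Without WT A or without WT C the adjusted p was 0.135 and 0.0756. Dcn, the related proteoglycan decorin, had at most 16 counts in any library.

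Tnc encodes tenascin C, a glycoprotein known from wounds and from moving epithelium. On chromosome 4 (63959785 to 64047015), it stood at 48.6 and 93.0 CPM in Foxp3-DTR C and D, against 302 and 280 CPM in WT A and C. The log2 fold change was -2.04 ± 0.32 (edgeR adjusted p = 0.0486). The adjusted p was 0.194 without WT A, 0.108 without WT C and 0.0765 without Foxp3-DTR C. Exons of annotated genes on the opposite strand share 176 of the 7772 merged exon bases of Tnc and 212 of the 8490 of Col5a1, and since the counter's strand setting is not given in the sources used here, reads there cannot be told apart.

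Col14a1 encodes a fibril-associated collagen of dermis and tendon. On chromosome 15 (55307750 to 55520803), it stood at 3.32 and 3.33 CPM in Foxp3-DTR C and D, against 29.0 and 15.1 CPM in WT A and C, or 50 and 47 counts against 412 and 246 counts. The log2 fold change was -2.73 ± 0.43 (edgeR adjusted p = 0.0451), and the adjusted p was 0.120 without WT A, 0.0921 without Foxp3-DTR C and 0.0983 with limma-voom.

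Npnt encodes nephronectin, the basement membrane ligand of integrin alpha8, the receptor by which arrector pili muscle attaches. On chromosome 3 (132881745 to 132950291), it stood at 278 and 297 CPM in Foxp3-DTR C and D, against 779 and 842 CPM in WT A and C. The replicates lay close together in both groups. The log2 fold change was -1.50 ± 0.19 (edgeR adjusted p = 0.0281), and the adjusted p was 0.172 without Foxp3-DTR C and 0.0635 without Foxp3-DTR D. Itga8, which encodes that receptor chain, was at 2.85 and 4.96 CPM in Foxp3-DTR and at 1.76 and 1.54 CPM in WT.

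**Figure D3:**
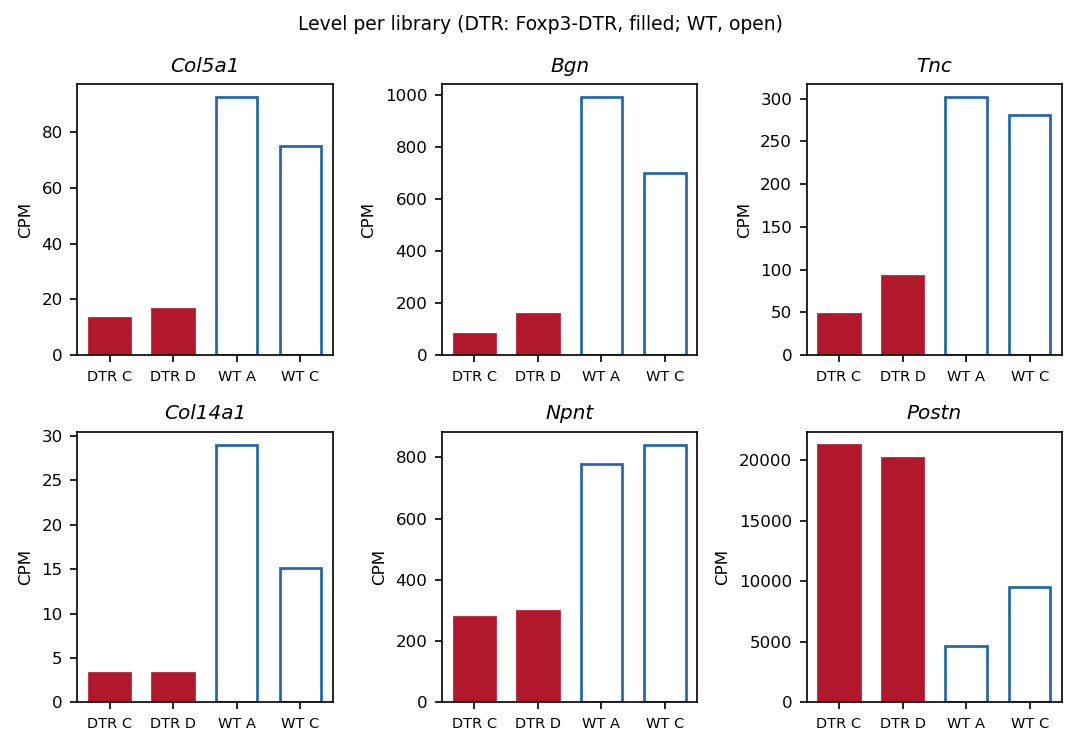
Level in CPM, on axes that start at 0, of the 5 members that passed the threshold and of Postn in each library, Foxp3-DTR filled and WT open. In each of the 5, both Foxp3-DTR bars stand below both WT bars, as for Npnt at 278 and 297 against 779 and 842 CPM; for Postn both stand above.

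Postn (chromosome 3, 54361109 to 54391037) stood at 21280 and 20188 CPM in Foxp3-DTR C and D, against 4653 and 9569 CPM in WT A and C. It took up 2.07% and 1.99% of all gene counts in Foxp3-DTR and 0.475% and 0.977% in WT. Both Foxp3-DTR libraries were higher, and the WT libraries also lay far apart from each other. Postn did not pass, at a log2 fold change of 1.54 ± 0.36, an unadjusted p of 0.00462 and, in edgeR, an adjusted p of 0.0999. It passed in DESeq2 (adjusted p = 4.37e-05), with no filter on low counts (0.0451) and without WT C (0.0126).

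The laminins, the cross-shaped trimers that start a basement membrane, held 0 calls among 9 tested chains in edgeR's test, with 0 at an unadjusted p under 0.05 and 0 in DESeq2. Over all tested genes the edgeR shares were 0.426% lower and 0.820% higher, and 7.89% and 6.76% at an unadjusted p under 0.05. In DESeq2 they were 3.77% and 3.59% of the genes it adjusted. At such shares a count of 0 among 9 does not set the laminins apart. Lamb3, a beta chain known from epidermal laminin, was the highest laminin per length, at 95.8 and 101 CPM per kilobase in Foxp3-DTR and 109 and 146 CPM per kilobase in WT. In CPM it stood at 633 and 665 CPM in Foxp3-DTR and at 718 and 968 CPM in WT, or -0.38 ± 0.22 as a log2 fold change (edgeR adjusted p = 0.523). Lama3, an alpha chain of the same laminin, had a log2 fold change of -0.21 ± 0.23. Lama5, the alpha chain found most widely in epithelial basement membranes, stood at 453 and 351 CPM in Foxp3-DTR and at 259 and 451 CPM in WT, and the groups overlapped. The laminin with the smallest p was Lamb1, at 17.9 and 35.4 CPM in Foxp3-DTR and at 45.2 and 48.7 CPM in WT (log2 fold change -0.82 ± 0.34, edgeR adjusted p = 0.341). Lama1 ranged from 0 to 5.81 CPM, and its groups overlapped. Lamc3 had 14 and 4 counts in Foxp3-DTR and 0 in WT, which is too few for the test.

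All 6 chains of collagen IV, the network-forming collagen, were lower in both Foxp3-DTR libraries than in both WT libraries, as were 23.7% of all tested genes. Of the 6, 5 were lower at an unadjusted p under 0.05, against 7.89% of all tested genes, but 0 passed the adjusted threshold. Col4a1 stood at 42.6 and 71.3 CPM in Foxp3-DTR and at 156 and 127 CPM in WT, or -1.32 ± 0.28 on the log2 scale (edgeR adjusted p = 0.0823), and DESeq2 called it lower (adjusted p = 0.000833). Col4a2 stood at 79.0 and 83.8 CPM in Foxp3-DTR and at 111 and 113 CPM in WT, with -0.46 ± 0.17 (edgeR adjusted p = 0.268). Col4a3 and Col4a4 had log2 fold changes of -1.03 ± 0.32 and -0.81 ± 0.33, and the X-linked Col4a5 and Col4a6 had -0.65 ± 0.22 and -0.44 ± 0.27. These 6 genes lie as 3 head-to-head pairs in the genome. The RefSeq starts of Col4a1 and Col4a2 are 21 bases apart on chromosome 8, at 11312826 and 11312805, with first exons that overlap by 22 bases, and those of Col4a5 and Col4a6 are 1343 bases apart on chromosome X.

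Of the remaining basement membrane genes, Col18a1, a proteoglycan collagen whose end fragment is endostatin, came closest to passing after Frem2. It stood at 317 and 347 CPM in Foxp3-DTR and at 669 and 692 CPM in WT, which is -1.03 ± 0.19 on the log2 scale (edgeR adjusted p = 0.0575). Col18a1 passed in DESeq2 (adjusted p = 1.64e-06), with no filter (0.0238) and without WT C (0.0489). The heparan sulphate proteoglycans agrin (Agrn) and perlecan (Hspg2) had -0.18 ± 0.32 and -0.08 ± 0.20. Collagen VII (Col7a1), which forms the anchoring fibrils, stood at 636 and 442 CPM in Foxp3-DTR and at 385 and 881 CPM in WT, and Col17a1 at 7182 and 6246 CPM in Foxp3-DTR and at 5389 and 7856 CPM in WT. For both anchoring collagens the WT libraries enclosed the Foxp3-DTR libraries, with log2 fold changes of -0.23 ± 0.42 and 0.02 ± 0.26.

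The Fraser complex proteins, which anchor embryonic epithelium to the dermis, had fold changes of both signs, and 0 of the 3 passed in edgeR, while DESeq2 called Frem2 lower. Frem2 stood at 46.9 and 74.5 CPM in Foxp3-DTR and at 166 and 200 CPM in WT, or -1.59 ± 0.26 on the log2 scale (edgeR adjusted p = 0.0507). Fras1 stood at 24.8 and 31.0 CPM in Foxp3-DTR and at 14.7 and 19.01 CPM in WT (0.73 ± 0.28, edgeR adjusted p = 0.289). Frem1 had 18 and 12 counts in Foxp3-DTR and 0 counts in WT, which makes it at least 10.4-fold higher against a floor of 3 counts over the WT group, and it did not pass (edgeR adjusted p = 0.159). Hmcn1, the large protein hemicentin, stood at 682 and 456 CPM in Foxp3-DTR and at 486 and 884 CPM in WT, with overlapping groups.

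Among fibrillar matrix genes that did not pass, Col1a1 of collagen I stood at 3.05 and 5.74 CPM in Foxp3-DTR and at 15.1 and 16.4 CPM in WT (log2 fold change -1.84 ± 0.43, edgeR adjusted p = 0.0982), and DESeq2 called it lower (adjusted p = 0.00648). Its partner Col1a2 stood at 20.3 and 23.0 CPM in Foxp3-DTR and at 23.4 and 35.1 CPM in WT (-0.44 ± 0.28). Col27a1, another fibril-forming chain, stood at 0.73 and 6.80 CPM in Foxp3-DTR and at 28.0 and 10.7 CPM in WT, with a wide error (-2.36 ± 1.09). Col16a1, Sparc and Fbn2 had log2 fold changes of -0.72 ± 0.23, -0.66 ± 0.26 and -2.24 ± 0.93, with unadjusted p of 0.0187, 0.0441 and 0.0495. Fbn2, a fibrillin, rested on 26 and 5 counts in Foxp3-DTR and 100 and 47 counts in WT, and its log2 fold change was -3.77 without Foxp3-DTR C, -1.51 without Foxp3-DTR D and -1.45 without WT A. Col12a1, a fibril-associated collagen, stood at 637 and 667 CPM in Foxp3-DTR and at 321 and 616 CPM in WT (0.48 ± 0.32), and fibronectin (Fn1) at 22.2 and 10.9 CPM in Foxp3-DTR and at 18.9 and 10.8 CPM in WT.

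Among the other collagens, Col6a1 and Col6a2 of microfibrillar collagen VI were higher in both Foxp3-DTR libraries than in both WT libraries without passing. Col6a1 stood at 629 and 668 CPM in Foxp3-DTR and at 355 and 567 CPM in WT, and Col6a2 at 211 and 244 CPM in Foxp3-DTR and at 103 and 183 CPM in WT, with log2 fold changes of 0.49 ± 0.26 and 0.67 ± 0.29. Col6a3, which codes for the other chain of the classical trimer, had 0 counts in Foxp3-DTR and 4 and 0 counts in WT. Col8a2, a short-chain collagen, stood at 287 and 273 CPM in Foxp3-DTR and at 168 and 291 CPM in WT, and its relative Col8a1 at 4.05 and 5.53 CPM in Foxp3-DTR and at 8.24 and 9.66 CPM in WT. The transmembrane collagen Col23a1 reached at most 4.11 CPM. Col6a6, Col10a1 and Col25a1 had at most 5 counts in a library and were not tested.

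Chains of the same trimer or complex, and the alternative laminin beta chains Lamb1 and Lamb2, were then set against each other within each library, as a ratio of CPM per kilobase, which does not depend on library size. Col5a1 over Col5a2 was 0.0887 and 0.138 in Foxp3-DTR, against 0.985 and 0.427 in WT. Col1a1 over Col1a2 was 0.285 and 0.473 in Foxp3-DTR, against 1.22 and 0.887 in WT. Col4a1 over Col4a2, from the paired starts, was 0.478 and 0.755 in Foxp3-DTR, against 1.25 and 0.999 in WT. In these 3 pairs both Foxp3-DTR libraries lay below both WT libraries. Of the 10 ratios taken, this held for 7. Both Foxp3-DTR libraries lay above for 2, and the groups overlapped for 1, Col4a3 over Col4a4. Which chain is put first sets the direction, and no share over other gene pairs was taken, so these counts carry no result about direction. Col5a1 and Frem2 already had the negative fold changes given above, so their ratios are not separate support. Lama5 over Lamc1, counted as above, was 3.13 and 2.61 in Foxp3-DTR, against 1.53 and 2.60 in WT, where Foxp3-DTR D and WT C nearly met. Frem2 over Fras1 was 2.53 and 3.21 in Foxp3-DTR, against 15.0 and 14.0 in WT. Col6a1 over Col6a2 was 5.67 and 5.21 in Foxp3-DTR, against 6.55 and 5.90 in WT. Lama3 over Lamb3 was 0.365 and 0.364 in Foxp3-DTR, against 0.309 and 0.335 in WT. These last differences between the groups were small beside those of Col5a1 and Frem2. Lamb1 over Lamb2 was 0.0582 and 0.162 in Foxp3-DTR, against 0.235 and 0.179 in WT. With 2 libraries against 2 the smallest p that the exact two-sided permutation test can give is 0.333. No other test of the ratios was run, and the absolute value of a ratio depends on the exon lengths in the annotation.

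**Figure D4:**
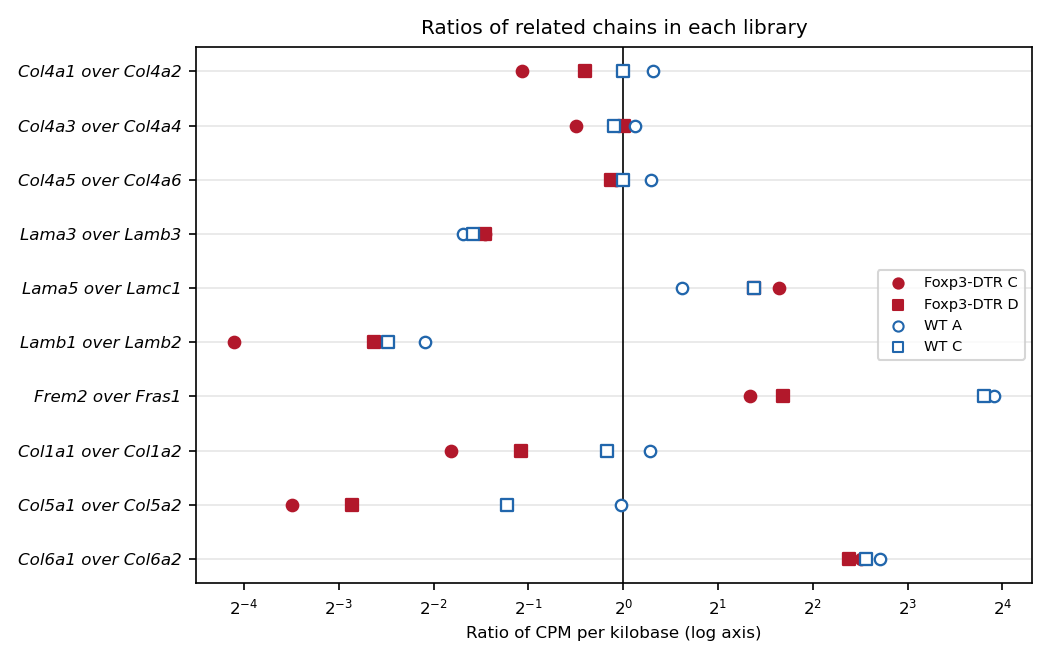
Ratio of related chains in each library, as CPM per kilobase of the first gene over the second on a log axis, with Foxp3-DTR libraries filled red and WT libraries open blue and a line at a ratio of 1. Col5a1 over Col5a2 and Frem2 over Fras1 show the widest gaps between red and blue, and the ratios of Lama3 to Lamb3 and of Col6a1 to Col6a2 vary least.

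Many basement membrane genes differed between the replicates of a group. Of 26 tested basement membrane genes, 23 were lower in WT A than in WT C, with a median log2 ratio of -0.43. Between the Foxp3-DTR replicates 14 were lower in D than in C, with a median of -0.04. Over all 12920 tested genes these counts were 6510 and 6479. Lower in both were 13 of the 26, or 50.0%, against 32.7% of all tested genes, and 2 were higher in both. With 23 of 26 lower in WT A, a large count lower in both does not by itself show a pattern shared by the groups. Of 18 fibrillar genes 3 were lower in both and 5 higher in both, against 4229 and 4151 of all 12920 tested genes. Foxp3-DTR D and WT A are also the libraries with the higher differentiation markers, with Krt10, a keratin of differentiating epidermis, at 458 and 3796 CPM in Foxp3-DTR C and D and at 4562 and 249 CPM in WT replicates A and C. The part of these markers in the matrix values was not tested. None of the 5 members that passed was lower in both. Bgn, Tnc and Col5a1 were higher in Foxp3-DTR D than in C and in WT A than in C. Col14a1 was level in Foxp3-DTR, at 3.32 and 3.33 CPM in C and D, and higher in WT A than in C. Npnt differed in opposite directions.

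**Figure D5:**
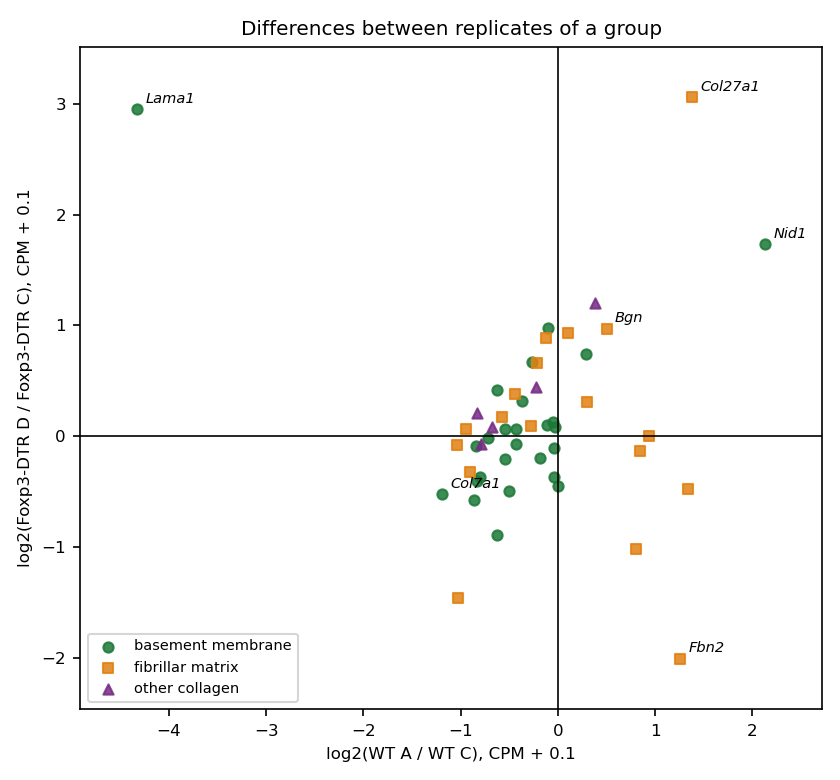
Log2 ratio between the replicates of each group for the 49 tested members, WT A over WT C on the x axis and Foxp3-DTR D over Foxp3-DTR C on the y axis, after adding 0.1 CPM. Of the 26 basement membrane genes (green circles) 23 lie left of 0, 14 lie below 0 and 13 at the lower left. Of the 18 fibrillar genes (orange squares) 9 lie left of 0, 7 below 0, 3 at the lower left and 5 at the upper right.

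Other genes that make, cut or bind matrix were counted from lists chosen with earlier results of these data known. Of 25 tested collagen-modifying and cross-linking enzymes 0 passed in edgeR's test, against 0.820% higher and 0.426% lower of all tested genes. DESeq2 called 1 higher, against 3.59% of the genes it adjusted. At an unadjusted p under 0.05 there were 2 higher and 2 lower, against 6.76% and 7.89% of all tested genes. The member with the smallest p was Leprel1, the collagen prolyl hydroxylase now called P3h2, at 184 and 130 CPM in Foxp3-DTR and at 64.3 and 89.2 CPM in WT (log2 fold change 1.04 ± 0.25, edgeR adjusted p = 0.108). Serpinh1, the collagen chaperone, is named with its values known. It was at 241 and 341 CPM in Foxp3-DTR and at 517 and 428 CPM in WT and did not pass.

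Of 27 tested matrix proteases and inhibitors 2 rose and 0 fell in edgeR, against 0.820% and 0.426% of all tested genes. At an unadjusted p under 0.05 there were 2 higher and 4 lower, against 6.76% and 7.89%. DESeq2 called 2 higher and 2 lower, against 3.59% and 3.77% of the genes it adjusted. Both that rose were secreted metalloproteases known to cleave large proteoglycans. Adamts1 stood at 143 and 105 CPM in Foxp3-DTR, against 25.2 and 16.2 CPM in WT (log2 fold change 2.59 ± 0.29, edgeR adjusted p = 0.0184). Adamts9 stood at 23.8 and 19.1 CPM in Foxp3-DTR, against 2.18 and 2.46 CPM in WT (3.20 ± 0.36, adjusted p = 0.0184, 0.0520 without Foxp3-DTR C and 0.0503 with limma-voom). Timp3, a matrix-bound inhibitor of such enzymes and also named with its values known, was at 41.5 and 63.4 CPM in Foxp3-DTR and at 155 and 131 CPM in WT (edgeR adjusted p = 0.0543).

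Of 26 tested matrix receptors and hemidesmosome genes 1 fell and 0 rose in edgeR, against 0.426% and 0.820% of all tested genes. At an unadjusted p under 0.05 there were 3 higher and 2 lower, against 6.76% and 7.89%. DESeq2 called 2 higher and 1 lower, against 3.59% and 3.77% of the genes it adjusted. Itgb6, the beta chain of an integrin that binds tenascin and fibronectin and activates TGF-beta, stood at 25.0 and 38.8 CPM in Foxp3-DTR, against 121 and 155 CPM in WT, and fell by 2.11 ± 0.27 on the log2 scale (edgeR adjusted p = 0.0294, and 0.0512 without Foxp3-DTR C). Over all tested genes 48.6% of fold changes were positive, with a median log2 fold change of -0.01. Fold changes were positive for 20 of these 26 genes, with a median of 0.21, a difference that was not tested. Among them, chosen after their values were seen, were Itga6, at 884 and 811 CPM in Foxp3-DTR and at 465 and 581 CPM in WT, and the collagen receptor Ddr1, at 1253 and 961 CPM in Foxp3-DTR and at 422 and 538 CPM in WT, both short of the threshold (edgeR adjusted p = 0.172 and 0.0701).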

How the data were processed

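Gene expression was measured by RNA sequencing of stranded poly(A) libraries, per the labels' protocols, in 4 libraries of sorted hair follicle stem cells. The authors deposited raw counts, as whole reads for each gene symbol. The build mm10 and the programs HTSeq 0.6.1, SAMtools 0.1.19.0, TopHat2 2.0.12, Bowtie2 2.1.0.0 and CASAVA 1.8.2 are listed in the submitters' processing notes. Which annotation and strand setting were used is not given in the sources used here. The counter's 5 special rows, mostly alignments that were not unique, held 62.0% to 70.1% of a library's counts and were left out.

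Differences of Foxp3-DTR over WT were fitted with edgeR 4.0.16 under R 4.3.3 (TMM factors, filterByExpr, robust glmQLFit and glmQLFTest, group as the only term), with Benjamini-Hochberg adjustment over 12920 genes and a threshold of 0.05. The common biological coefficient of variation was 0.309. Standard errors come from the fold change and the F statistic. Alternatives were RLE factors, DESeq2 1.42.0, limma-voom (limma 3.58.1), no filter, and leaving out each library. Floors take 3 counts for a count of 0, which is 0.185 to 0.213 CPM per library, and cover counting error only. Exon lengths and coordinates are from GENCODE M21 (GRCm38, the assembly of mm10), matched by symbol for all 72 members. Values of 1 member are not reported here, though counts over members include it.

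The members, roles and lists were chosen with earlier results of these data known. Named members are those past the threshold, those with an unadjusted p under 0.05, the 3 most abundant per length and the one with the smallest p in each role, always with Col5a1, Col17a1 and Npnt. From each list up to 4 passing genes, or the one with the smallest p, are named. Paired collagen IV chains are named together. Col27a1, Lama1, Lama5, Lamc3, Nid1, Dcn, Col3a1, Col6a3, Lamb2, the members at 0 counts and the marker genes were named after their values were seen.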

Additional observations from a re-analysis of the deposited data

How the results depend on the processing

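The 5 members that fell kept their sign in all 8 alternatives, and Col5a1 stayed past the threshold in each. The count of members lower, 5, was 9 with DESeq2, 8 with no filter and 2 to 7 when 1 library was left out. Members higher, 0, were 1 with DESeq2, 1 with no filter and 0 to 2 with a library left out. Basement membrane genes lower, 1, were 4 with DESeq2, 4 with no filter and 0 to 2 with a library left out. Fibrillar genes lower, 4, were 1 to 5 with a library left out, and fibrillar genes higher, 0, were 1 with DESeq2, 1 with no filter and 0 to 1 with a library left out. Over all genes, 106 higher and 55 lower, DESeq2 gave 489 and 513, limma-voom 70 and 23, no filter 277 and 252, and leaving out a library 66 to 203 and 14 to 220. Collagen-modifying enzymes higher, 0, were 1 with DESeq2 and 1 with no filter. Proteases and inhibitors higher, 2, were 1 with limma-voom and 1 to 3 with a library left out, and lower, 0, were 2 with DESeq2, 1 with no filter and 0 to 2 with a library left out. Receptors higher, 0, were 2 with DESeq2, 1 with no filter and 0 to 1 with a library left out, and lower, 1, were 0 to 1 with a library left out. The cause was not tested.

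Fold changes that did not pass and turned their sign with a library left out ranged, on the log2 scale, from -0.44 to 0.10 in Lama3, -0.27 to 0.10 in Hspg2, -0.52 to 0.31 in Agrn, -0.70 to 0.49 in Col7a1, -0.21 to 0.32 in Col17a1, -0.62 to 0.23 in Hmcn1, -0.44 to 0.63 in Fn1, -0.039 to 0.74 in Col8a2, -0.40 to 0.85 in Col23a1 and -0.38 to 0.52 in Col5a2. Col5a2, at -0.01, was also 0.0033 with RLE factors, 0.0037 with DESeq2, 0.051 with limma-voom and 0.0059 with no filter. No paired analysis was possible because the labels link no Foxp3-DTR library to a WT library. With 1 library left in a group, its spread is assumed to be that of the other group. The 23 members that were not tested had at most 16 counts in a library, which limits what can be said of them. Mgp and Calml3, tried after seeing the data, kept their signs in all 8 alternatives.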
